A study of Tilletiopsis washingtonensis and Meira miltonrushii with 14 samples.

Results

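Transcripts of the fungus Tilletiopsis washingtonensis were compared between filaments on Tween40 and yeast cells on glucose, over the whole set of 7011 predicted genes with counts. All rows of the raw count table whose identifier is a number were taken as genes, in the 8 libraries of this species out of 14 in the series. The 4 yeast libraries came from Holliday's minimal medium with 1% glucose, and the 4 filamentous libraries from the same medium with 1% Tween40 in place of glucose. Both groups are strain MCA 4186 (NRRL Y-63783), were precultured for 7 days in potato dextrose broth, and were harvested after 3 days at 25 °C, and poly(A)+ libraries were made from total RNA of the fungal biomass. Carbon source and growth form changed together in every library, so their parts in any difference cannot be told apart. The titles number the libraries 1 to 4 in each group, and the count columns carry other numbers, in the same order in both groups. Neither numbering says that each library is a separate culture. The p-values below therefore measure the spread between these libraries, which may be technical.

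Tilletiopsis belongs to the Ustilaginomycotina, the group of the smut fungi, in which many species can grow either as budding yeast cells or as hyphae. In the corn smut Ustilago maydis, the best studied member, the yeast is the free-living form and the hypha is the form that enters the plant, and fatty acid esters such as Tweens are known to bring on hyphal growth in culture. Tween40 is an ester of palmitic acid, and a fungus that lives on it has to split the ester and oxidise the fatty acid, whereas glucose enters glycolysis directly. The reference table used here pairs protein identifiers with locus tags and names no products, so genes are given by locus tag and no role is assigned to any of them. In bulk RNA, fewer cells of one form and less transcript per cell cannot be told apart.

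Counts assigned to genes came to 21.3 M to 30 M in the yeast libraries and to 28.0 M to 30.3 M in filamentous replicates 1 to 3. Filamentous replicate 4 held 12.3 M, and it also had the highest scaling factor (1.167). Reads outside genes were 14.5% in it, 12.4% to 13.3% in filamentous replicates 1 to 3 and 11.5% to 12.8% in yeast libraries. At these totals 1 read is worth 0.0330 to 0.0812 CPM, counts per 1 M counts of a library. Genes with a count numbered 6858 to 6932 in yeast libraries and 6973, 6966, 6972 and 6907 in filamentous replicates 1 to 4. A filter on low counts kept 6727 of the 7011 genes, and 12 genes had no count in any library.

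The forms differed in 4156 of the 6727 tested genes (61.8%). In filamentous libraries 2091 genes rose (31.1% of those tested) and 2065 fell (30.7%), at an adjusted p under 0.05 in edgeR's quasi-likelihood test. Changes of at least 2-fold were called for 817 risen genes (12.1%) and 825 fallen genes (12.3%), and changes of at least 4-fold for 263 (3.91%) and 225 (3.34%). At least a 16-fold change was called for 36 risen and 37 fallen genes. When the test asked for evidence of a change beyond 2-fold, 459 genes passed as higher and 488 as lower.

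Strong increases and strong decreases lay at different abundances. Among genes changed at least 4-fold, 120 of the 263 that rose had a mean under 10 CPM over the 8 libraries, against 53 of the 225 that fell. At a mean of at least 100 CPM the numbers were 48 risen and 75 fallen genes. Ranked by mean CPM into 4 equal groups, the least abundant group (0.242 to 16.8 CPM) held 578 risen and 339 fallen genes. The group from 16.8 to 45.2 CPM held 547 and 428, and the group from 45.3 to 109 CPM held 543 and 548. The most abundant group, above 109 CPM, held 423 risen and 750 fallen genes, and the group medians of the log2 fold change went from 0.24 in the least to -0.18 in the most abundant group. The groups were read with TMM scaling only. Upper-quartile factors moved the median over all tested genes by 0.10, so the balance within a group can depend on scaling.

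**Figure D1:**
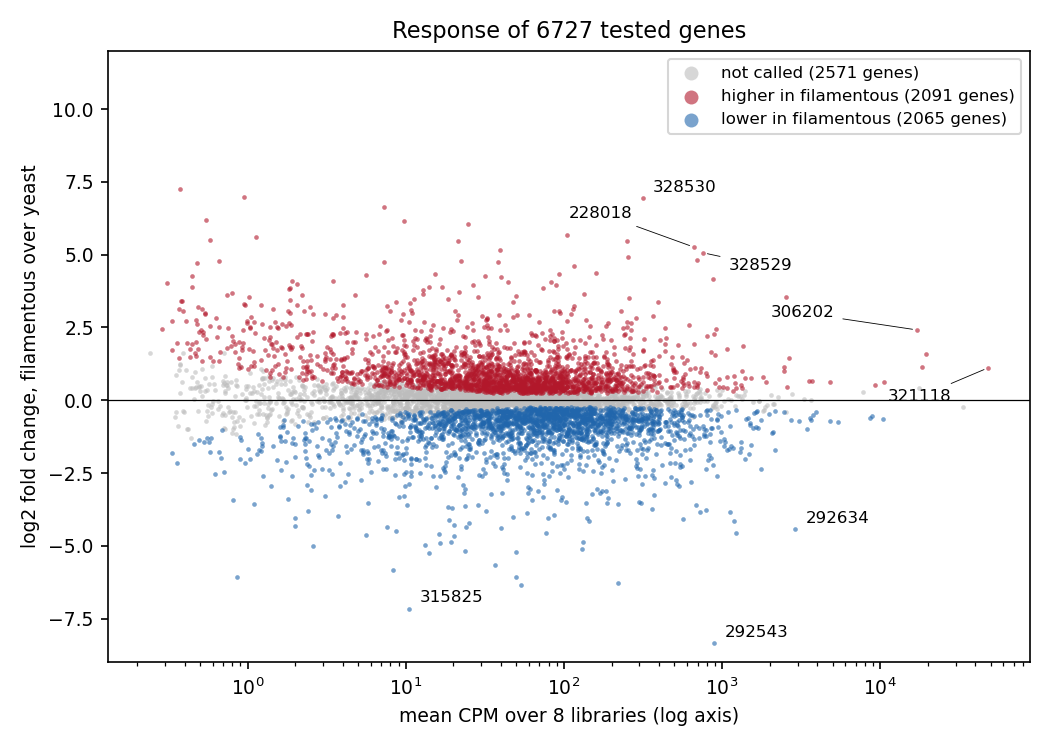
Each point is 1 of 6727 tested genes, with its mean CPM over 8 libraries on a log axis against its log2 fold change, filamentous over yeast, and points are coloured by the edgeR call. Locus tag numbers mark 8 genes, among them FA09DRAFT_328530 at 6.93 and FA09DRAFT_292543 at -8.35, and the cloud of strong increases reaches to lower CPM than that of strong decreases.

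The 10 largest increases, among called genes whose forms did not overlap and whose mean reached 10 CPM, ran from a log2 fold change of 4.83 to 6.93. FA09DRAFT_328530 led them, with 4.0, 6.02, 5.90 and 4.62 CPM as yeast replicates 1 to 4 and 748, 577, 438 and 732 CPM in filamentous replicates 1 to 4. Its neighbour in the gene order, FA09DRAFT_328529, was itself among the 10. It stood at 42.1, 48.1, 46.6 and 40.1 CPM as yeast and at 1825, 1499, 1168 and 1419 CPM as filaments (log2 fold change 5.06, SE 0.17, edgeR adjusted p = 4.0e-09). In this pair filamentous replicate 1 was the highest and replicate 3 the lowest library.

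FA09DRAFT_228018 was as abundant, with 28.2, 39.0, 40 and 26.8 CPM as yeast and 1244, 1718, 1502 and 683 CPM as filaments (log2 fold change 5.26, SE 0.30, edgeR adjusted p = 1.26e-07). FA09DRAFT_331436 stood at 63.1, 44.4, 59.0 and 22.6 CPM as yeast and at 956, 1739, 2105 and 565 CPM as filaments (log2 fold change 4.83, SE 0.46, edgeR adjusted p = 5.63e-06). In both genes filamentous replicate 4 was the lowest of its form, yet it lay above every yeast library.

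FA09DRAFT_345551 went from 4.08 ± 2.81 CPM as yeast to 206 ± 86.7 CPM as filaments (SD, n = 4), and its log2 fold change was 5.67 (SE 0.47, edgeR adjusted p = 1.99e-06). Its filamentous libraries ran from 105 CPM in replicate 3 to 298 CPM in replicate 1. FA09DRAFT_327780 had the most even filamentous values of the 10, at 67.7, 69.9, 77.2 and 91.8 CPM, and stood at 2.32, 2.47, 1.31 and 2.40 CPM as yeast (log2 fold change 5.16, SE 0.20, edgeR adjusted p = 6.74e-09). FA09DRAFT_331692 was rare in yeast, at 0.326 to 1.31 CPM, and stood at 28.1, 52.9, 59.4 and 26.9 CPM as filaments. The yeast level of this gene rests on 93 counts over the 4 libraries. FA09DRAFT_151432 was at 0.344 to 1.06 CPM as yeast and at 37.8, 71.8, 62.2 and 22.6 CPM as filaments. The adjoining genes FA09DRAFT_75309 and FA09DRAFT_331033, described with the gene order, complete the 10.

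The 10 largest decreases ran from a log2 fold change of -5.11 to -8.35 and left the filamentous libraries at a trace of the yeast level. FA09DRAFT_292543 stood at 1796, 1769, 2411 and 1100.1 CPM as yeast and at 6.91, 6.50, 4.68 and 3.27 CPM as filaments. FA09DRAFT_315524 followed the same course from 473, 441, 455 and 359 CPM as yeast to 5.90, 6.54, 6.64 and 3.06 CPM as filaments (log2 fold change -6.26, SE 0.23, edgeR adjusted p = 5.25e-09). FA09DRAFT_360265 went from 285, 232, 272 and 221 CPM to 7.87, 6.39, 7.82 and 7.17 CPM (log2 fold change -5.11, SE 0.13, edgeR adjusted p = 8.66e-10). These 3 genes stood above 200 CPM in each yeast library and below 10 CPM in each filamentous library.

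Another 5 of the 10 were less abundant as yeast. FA09DRAFT_332846 was at 97.9 ± 4.62 CPM as yeast and 1.54 ± 0.627 CPM as filaments (SD, n = 4), FA09DRAFT_327323 at 97.4 ± 8.5 and 2.56 ± 0.712 CPM, and FA09DRAFT_330912 at 45.8 ± 6.52 and 1.28 ± 0.181 CPM. Their log2 fold changes were -6.05, -5.21 and -5.18, with SEs of 0.18 to 0.21. FA09DRAFT_332744 stood at 122, 118, 51.3 and 129 CPM as yeast, where replicate 3 was far below the others, and at 1.00 to 1.46 CPM as filaments (log2 fold change -6.35, SE 0.32, edgeR adjusted p = 6.24e-08). FA09DRAFT_363189 was the most uneven in yeast, at 33.6, 38.2, 23.1 and 14.1 CPM, and stood at 0.295 to 1.18 CPM as filaments (log2 fold change -5.25, SE 0.42, edgeR adjusted p = 1.49e-06). The other two were FA09DRAFT_315825 and FA09DRAFT_332830.

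**Figure D2:**
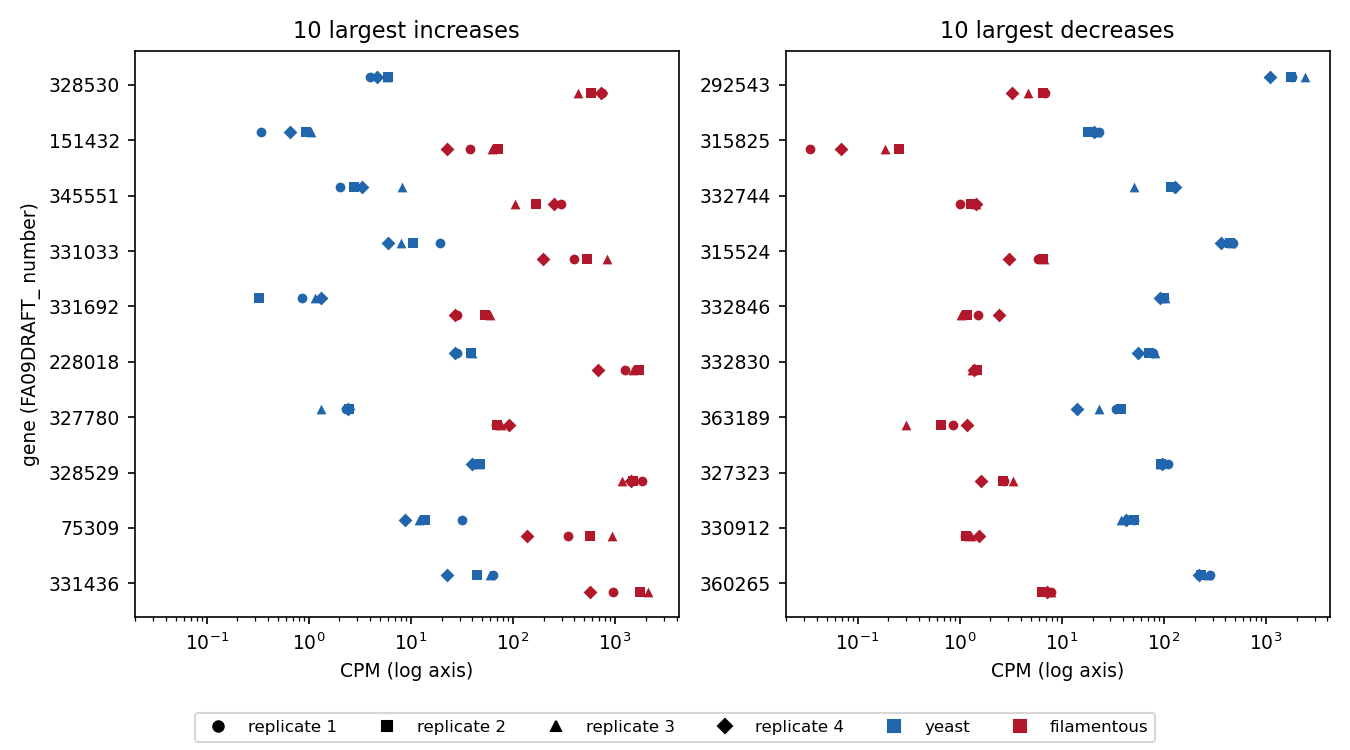
CPM of each library on a log axis for the 10 largest increases (left) and the 10 largest decreases (right), with blue for yeast, red for filamentous and 1 marker shape per replicate number. The genes were chosen so that the 2 colours stay apart, and in FA09DRAFT_331033, FA09DRAFT_75309 and FA09DRAFT_331436 the filamentous points spread more widely than in FA09DRAFT_327780.

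Few tested genes were close to silent in one form and clearly read in the other. With at most 0.5 CPM in every library of one form and at least 5 CPM in every library of the other, 3 genes were found, a set chosen after their values were seen. FA09DRAFT_256129 was at 0.0466 to 0.250 CPM as yeast, 14 counts in all, and at 11, 21.0, 20 and 6.12 CPM as filaments. Its log2 fold change was 6.64 (SE 0.53, edgeR adjusted p = 1.66e-06), and 7.23 without yeast replicate 4. FA09DRAFT_327370 went the other way, from 18.9, 16.3, 14.9 and 15 CPM as yeast to 0.173 to 0.417 CPM as filaments (log2 fold change -5.84, SE 0.25, edgeR adjusted p = 1.24e-08). The third was FA09DRAFT_315825, at 22.9, 18.2, 21.9 and 20.6 CPM as yeast and 0.0345 to 0.253 CPM as filaments.

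Complete absence from one form was limited to rare transcripts. No count in any yeast library was recorded for 24 genes that had counts in filamentous libraries, and 1 of them passed the filter on low counts. That gene, FA09DRAFT_97832, had 29, 19, 24 and 6 counts in filamentous replicates 1 to 4, and against a floor of 3 counts over the yeast group it was at least 25.3-fold higher (edgeR adjusted p = 0.000206). The reverse pattern was found for 4 genes, none of which passed the filter, and the largest of them had 8 counts over the yeast libraries. Floors cover counting error only.

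The size of a fold change and the amount of RNA it moved were different things. Summed over all tested genes, 3514 genes had a higher mean CPM as filaments and 3213 a lower one. The 5 genes with the largest gains held 38.6% of the summed gain, while the 5 with the largest losses held 8.49% of the summed loss. These sums run over all tested genes, and each set of 5 holds a gene that was not called, FA09DRAFT_328967 for the gain and FA09DRAFT_330858 for the loss. It took 18 genes to make up 50% of the gain and 126 genes to make up 50% of the loss. The contrast was as large without filamentous replicate 4, at 38.5% and 7.37%, and with library size alone as scaling, at 38.2% and 8.53%. CPM is a share of a library total, so the summed gain and summed loss are tied and not independent. With library size alone each came to 252022 CPM. CPM is not corrected for transcript length, so these are shares of counts and not of molecules.

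**Figure D3:**
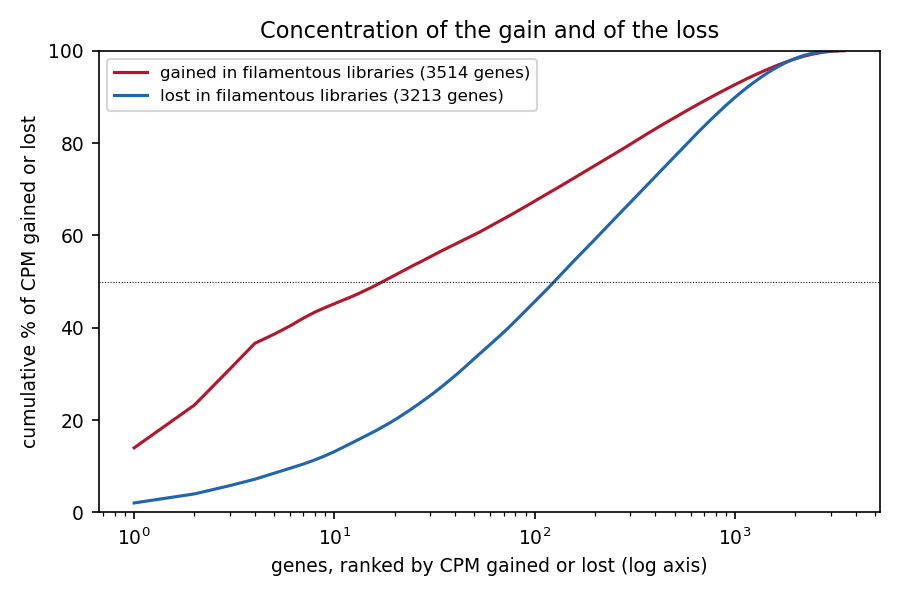
Cumulative percentage of the summed CPM gained (red) and lost (blue) in filamentous libraries, against genes ranked by the CPM they gained or lost on a log axis. The gain reaches the dotted line at 50% with 18 genes and the loss with 126.

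Among called genes the largest gain in CPM was that of FA09DRAFT_321118, from 29590.4, 32361, 31605 and 27873 CPM as yeast to 67233, 77573, 66357 and 50888 CPM as filaments. FA09DRAFT_306202 rose from 4462, 6173, 4609 and 6196 CPM to 27323, 36712, 31424 and 19055 CPM (log2 fold change 2.42, SE 0.22, edgeR adjusted p = 3.46e-06). FA09DRAFT_332232 rose from 9681 ± 915 to 29194 ± 6663 CPM (SD, n = 4; log2 fold change 1.59, SE 0.18, edgeR adjusted p = 1.94e-05). In these 3 genes filamentous replicate 2 was the highest and replicate 4 the lowest library of its form, and the forms did not overlap.

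FA09DRAFT_341753 rose from 11475 ± 546 to 25492 ± 4673 CPM and FA09DRAFT_328435 from 8373 ± 427 to 12856 ± 2758 CPM (SD, n = 4). Their log2 fold changes were 1.15 and 0.62, with edgeR adjusted p-values of 5.70e-05 and 0.00669. Together these 5 called genes, which exclude FA09DRAFT_328967, took 6.05%, 6.78%, 6.37% and 6.78% of gene counts in yeast and 16.6%, 17.6%, 15.8% and 14.3% in filamentous libraries. They were chosen for their gain, so the shares describe its size.

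The largest loss in CPM among called genes was that of FA09DRAFT_292634, from 5877, 5515, 6319 and 4441 CPM as yeast to 217, 299.5, 370.0 and 147 CPM as filaments (log2 fold change -4.42, SE 0.28, edgeR adjusted p = 2.87e-07). The next 4 losses were modest changes of abundant transcripts. FA09DRAFT_308338 fell from 12667 ± 1261 to 8082 ± 984 CPM, FA09DRAFT_298973 from 10341 ± 665 to 6783 ± 1013 CPM, FA09DRAFT_320451 from 10545 ± 924 to 7192 ± 956 CPM and FA09DRAFT_317930 from 6815 ± 953 to 4046 ± 497 CPM (SD, n = 4). Their log2 fold changes lay between -0.55 and -0.75 with SEs of 0.14 or 0.15, and edgeR adjusted p-values were 9.41e-04 to 0.00503. In each of these 4 the lowest yeast library was above the highest filamentous library.

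The other two genes among those with most counts were not called. FA09DRAFT_330858 stood at 36388, 37174, 38668 and 32227 CPM as yeast and at 31309, 36542, 32219 and 24193 CPM as filaments, so that the forms overlapped (edgeR adjusted p = 0.236, and 0.0286 with library size alone as scaling). FA09DRAFT_328967 stood at 14675, 16443, 15906 and 12933 CPM as yeast and at 19562, 23988, 22923 and 13516 CPM as filaments (log2 fold change 0.42, SE 0.18, edgeR adjusted p = 0.0685). Filamentous replicate 4 lay among the yeast libraries here, and without it the log2 fold change was 0.56 with an adjusted p of 0.00151. With all libraries, DESeq2 called FA09DRAFT_328967 higher (adjusted p = 0.0332), as did edgeR with upper-quartile factors (adjusted p = 0.0181) and with library size alone (adjusted p = 0.00596), so its call depends on these settings. Of the 2571 genes that were not called (38.2%), 1549 had a 95% interval of the fold change that lay within 1.5-fold in either direction. The other 1022 uncalled genes had wider intervals and a median of 11.4 CPM, against 57.8 CPM for the former, so for them a change beyond 1.5-fold was not excluded at this precision.

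Filamentous libraries varied more among themselves than yeast libraries. Over 5224 genes with at least 10 CPM in both forms, the median coefficient of variation was 12.9% in filamentous and 10.0% in yeast libraries. In that set 64.7% of genes had the larger coefficient in filamentous libraries. Among the 79 of 263 strongly risen genes that reached 10 CPM in both forms, the medians were 33.2% and 16%, and among 109 of 225 strongly fallen genes they were 16.8% and 13.1%. No test of these differences in spread was run. The filamentous coefficients include the shallow replicate 4, and none was computed without it, so its part in the larger spread is not known.

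Part of that spread was shared between genes. Of the 263 genes that rose at least 4-fold, filamentous replicate 4 was the lowest library of its form in 172 (65.4%), against 39.5% of all tested genes. Among the 225 genes that fell at least 4-fold it was the lowest in 117 (52.0%), so the tendency was in both sets. In the risen genes filamentous replicate 3 was the highest in 119 (45.2%), against 29.0%. On the log2 scale the risen genes' median deviation from the form mean was -0.10, 0.19, 0.28 and -0.46 in filamentous replicates 1 to 4. That of the fallen genes was -0.21 in replicate 4. Over all tested genes no median was farther than 0.029 from 0, where TMM scaling tends to hold it. With the 143 genes of at least 10 CPM the median in replicate 4 was -0.41. In yeast libraries the deviations of the 263 genes had medians between -0.092 and 0.051. Replicate 4 was also the shallowest library, and the part of its depth in this pattern was not tested.

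The order of the filamentous libraries was not the same in all strongly risen genes. Replicate 3 was the highest and replicate 4 the lowest in 97 of the 263 (36.9%), against 18.5% of all tested genes. FA09DRAFT_331436, FA09DRAFT_331033 and FA09DRAFT_75309 are examples. In FA09DRAFT_328530, FA09DRAFT_328529 and FA09DRAFT_345551 replicate 3 was instead the lowest.

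Each library was also set against calls it had no part in. For genes called at least 4-fold without filamentous replicate 4, its own change from the yeast mean had a median of 2.0 on the log2 scale in 287 genes that rose, where the other 3 filamentous libraries had 2.59. In 222 genes that fell the medians were -3.04 and -2.59, so this library showed a smaller rise and a larger fall. For filamentous replicates 1, 2 and 3, treated alike, the medians of risen genes were 2.46, 2.80 and 2.96. The filamentous libraries set beside them had 2.48, 2.50 and 2.50. For fallen genes the medians were -2.69, -2.48 and -2.58, against -2.70, -2.68 and -2.64. The libraries set beside each had taken part in the calls, which can enlarge their change. Each of the 8 libraries lay beyond every library of the other form, on the called side, in 98.2% to 99.8% of the genes called at least 4-fold without it. For all called genes that share was 86.5% in filamentous replicate 4 and 91.0% to 97.3% in the other libraries. The libraries of the other form had taken part in these calls, which by itself favours such separation, so high shares are partly built in. Over all tested genes 55.6% had forms that did not overlap, with every library of one form beyond every library of the other. That measure is stricter than the shares of a single library above and is not their background, which was not computed.

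**Figure D4:**
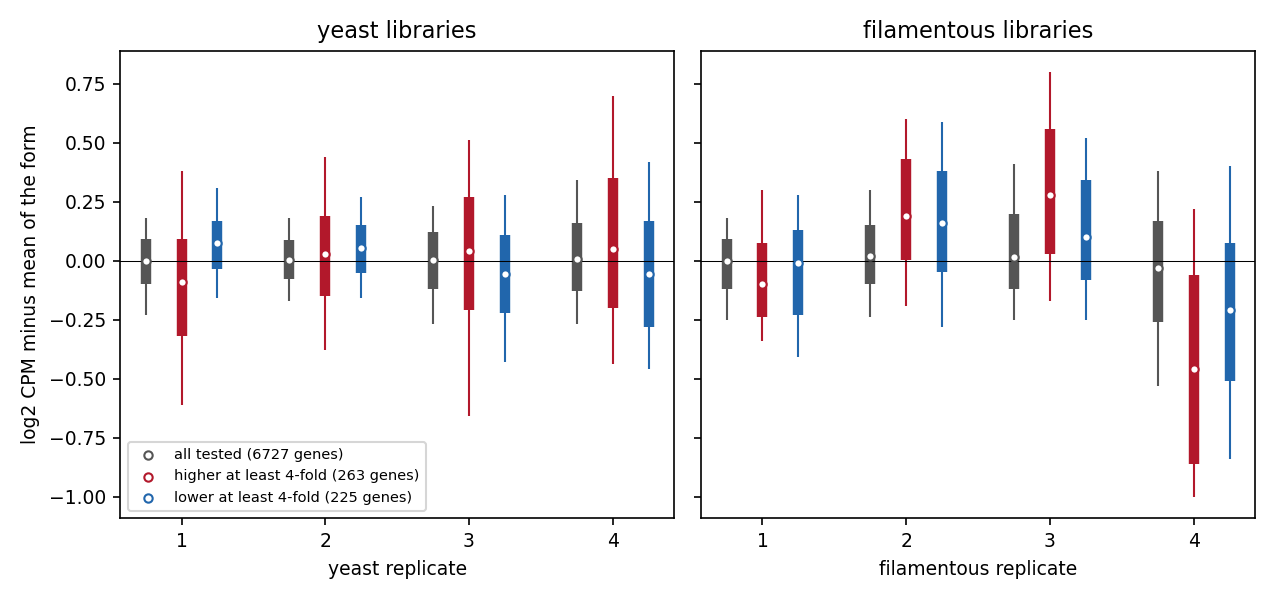
Deviation of log2 CPM from the mean of the form in each yeast (left) and filamentous (right) library, for all tested genes (grey), genes higher at least 4-fold (red) and genes lower at least 4-fold (blue). White dots are medians over genes, thick bars the middle 50% and thin lines the 10th to 90th percentile, and the red median of filamentous replicate 4 lies at -0.46.

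Strong changes were found side by side in 44 pairs of risen and 32 pairs of fallen genes, and 11 adjoining pairs had changed strongly in opposite directions. The gene order of assembly Tilwa1 placed 6722 tested genes on 36 sequences, whose ends were inferred from the order of positions. The direct neighbours of genes that rose at least 4-fold had themselves risen at least 4-fold in 17.8% of cases, against 3.91% of all placed and tested genes. For strong decreases the shares were 14.8% and 3.35%. At 2 genes apart the shares were 10.0% and 4.68%, and at 5 genes apart they were 4.02% and 2.82%. With a 2-fold threshold the direct neighbours shared the change in 24.1% of cases for increases and 26.7% for decreases, against 12.2% and 12.3% of all.

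**Figure D5:**
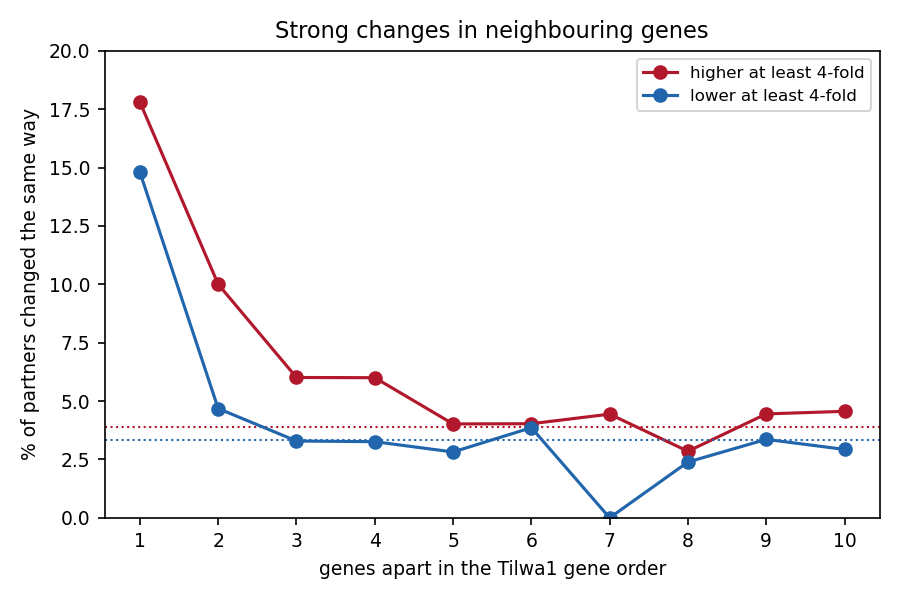
Percentage of partners that changed at least 4-fold in the same direction, against the distance in steps along the gene order between a strongly changed gene and its partner, where direct neighbours are 1 step apart, for increases (red) and decreases (blue). Dotted lines give the share of all placed and tested genes, 3.91% and 3.35%, and both curves start at 17.8% and 14.8% and come down to about these lines within 5 genes.

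Unbroken stretches of at least 3 genes changed at least 4-fold numbered 7 for increases, with 27 genes, and 3 for decreases, with 9 genes. In a stretch of 4 risen genes FA09DRAFT_343513 was by far the most abundant, at 432, 457, 346 and 368 CPM as yeast and 3100.4, 6865, 7448 and 1170.2 CPM as filaments (log2 fold change 3.53, SE 0.48, edgeR adjusted p = 7.39e-05). Before it lay FA09DRAFT_330410, at 25.1 ± 1.38 CPM as yeast and 125, 256, 345 and 60.7 CPM as filaments. After it lay FA09DRAFT_361071, at 6.49 ± 0.280 and 33.5 ± 17.9 CPM, and FA09DRAFT_46456, at 0.753 ± 0.186 and 3.37 ± 2.37 CPM (SD, n = 4). In the first 3 of these genes filamentous libraries ranked in the same order, with replicate 3 the highest and replicate 4 the lowest. FA09DRAFT_46456 was called, but its forms overlapped, since filamentous replicate 4 stood at 0.696 CPM.

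The stretch of 5 risen genes with FA09DRAFT_75309 and FA09DRAFT_331033 had 3 further members. FA09DRAFT_331033 stood at 19.5, 10.4, 7.98 and 5.96 CPM as yeast and at 393, 537, 825 and 198 CPM as filaments (log2 fold change 5.48, SE 0.50, edgeR adjusted p = 4.01e-06). FA09DRAFT_75309 stood at 31.5, 13.9, 12.1 and 8.87 CPM as yeast and at 344, 575, 924 and 137 CPM as filaments (log2 fold change 4.90, SE 0.60, edgeR adjusted p = 3.32e-05). FA09DRAFT_331035 stood at 7.28, 8.58, 9.19 and 10.7 CPM as yeast and at 180.1, 208, 370.1 and 127 CPM as filaments (log2 fold change 4.62, SE 0.31, edgeR adjusted p = 4.65e-07). In these 3 genes filamentous replicate 3 was the highest and replicate 4 the lowest, and so they were in FA09DRAFT_331034, which rose from 66.8 ± 5.75 to 285 ± 149.9 CPM (SD, n = 4). At the end of the stretch, FA09DRAFT_331036 was more even, at 24.1 ± 2.90 CPM as yeast (SD, n = 4) and 104, 121, 147 and 111 CPM as filaments.

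Among the decreases, FA09DRAFT_292634 closed a stretch of 3 in which its neighbours were rarer. FA09DRAFT_327035 stood at 37.6 ± 5.88 CPM as yeast and 7.27 ± 2.02 CPM as filaments, and FA09DRAFT_910 at 9.42 ± 0.316 and 2.1 ± 0.619 CPM (SD, n = 4). Another stretch ran over FA09DRAFT_175300, FA09DRAFT_175412 and FA09DRAFT_332830. FA09DRAFT_175300 fell from 371, 372, 360.0 and 281 CPM as yeast to 33.0, 32, 27.9 and 26.8 CPM as filaments (log2 fold change -3.53, SE 0.13, edgeR adjusted p = 4.78e-09). FA09DRAFT_332830 fell from 79.0, 70.7, 81.5 and 55.3 CPM to 1.45, 1.48, 1.33 and 1.39 CPM, the most even filamentous values among the 10 largest decreases.

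The neighbours of the 20 genes with the largest changes were read in the same way, with genes chosen after their values were seen. Leaving out neighbours that are themselves among the 20 and counting each gene once, 7 of 15 tested neighbours of the 10 largest increases had also risen, and 8 of 19 neighbours of the 10 largest decreases had also fallen. Of all tested genes 31.1% rose and 30.7% fell. Among direct neighbours of any gene called higher 41.2% had also risen, and of any gene called lower 42.8% had also fallen. Sharing of a call was thus a trait of called genes at large and is not shown to be particular to the 20. No test of these differences was run. FA09DRAFT_292543 and FA09DRAFT_327323, both among the 10 largest decreases, were separated by a single gene. That gene, FA09DRAFT_327322, fell less, from 110.0, 98.0, 135 and 84.3 CPM as yeast to 53.6, 46.8, 42.5 and 56.4 CPM as filaments (log2 fold change -1.10, SE 0.15, edgeR adjusted p = 7.13e-05). Beside FA09DRAFT_327780 lay FA09DRAFT_358424, at 16.1, 24.8, 26.0 and 20.6 CPM as yeast and 179, 255, 274 and 125 CPM as filaments (log2 fold change 3.25, SE 0.25, edgeR adjusted p = 1.23e-06).

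Beside FA09DRAFT_315825 lay FA09DRAFT_358926, which fell from 98.9 ± 18.3 to 17.4 ± 2.50 CPM, and beside FA09DRAFT_330912 lay FA09DRAFT_339767, which fell from 16.5 ± 1.81 to 1.61 ± 0.338 CPM (SD, n = 4). A strong change was not always shared: FA09DRAFT_151432, FA09DRAFT_345551, FA09DRAFT_315524 and FA09DRAFT_332744 had no neighbour called in their own direction. Some neighbours went the opposite way. Beside the decreases, FA09DRAFT_307597 (log2 fold change 1.94, edgeR adjusted p = 8.51e-06), FA09DRAFT_336002 (0.89), FA09DRAFT_363493 (0.73) and FA09DRAFT_332432 (0.29) were called higher. Beside the increases, FA09DRAFT_217539 (-0.62) and FA09DRAFT_347189 (-0.68) were called lower. The table used for gene order holds no strand, and the strand setting of the counting is not given in the sources used here. Reads of overlapping genes can therefore be counted for a neighbour, and the part of such reads in the shared changes was not tested. Reads set aside as ambiguous were at most 0.0635% of a library.

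Finally, 7 genes had no entry in the reference table, and 5 of them were tested. Protein 91252 fell from 111, 115, 103 and 118 CPM as yeast to 69.4, 65.9, 46.4 and 62.3 CPM as filaments (protein_91252, log2 fold change -0.88, SE 0.12, edgeR adjusted p = 9.15e-05). Protein 357012 was called lower with overlapping forms, at 4.95 ± 1.81 CPM as yeast and 2.65 ± 0.855 CPM as filaments (SD, n = 4; protein_357012, edgeR adjusted p = 0.0204). Its adjusted p rose to 0.0554 to 0.0703 without yeast replicate 4, filamentous replicate 1 or filamentous replicate 2. The other 3, proteins 327255, 332778 and 363525, were not called.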

How the data were processed

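The authors deposited raw read counts per protein identifier, beside lines for unassigned reads and totals. In the deposited normalized signal, each count is scaled by a single factor of its library, to within a relative deviation of 5.0e-15. Per the submitters' processing notes, the tools were DESeq2 1.20.0, HTSeq 0.7.0, TopHat2 2.1.1 and cutadapt 1.13. Build, annotation and strand setting: not given in the sources used here. Lines naming no gene were left out, and genes held 82.2% to 85.1% of each library's total.

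Raw counts of the 8 libraries were tested with edgeR 4.0.16 (R 4.3.3): filterByExpr, scaling by TMM, a quasi-likelihood fit with robust set and form as the only term, and Benjamini-Hochberg adjustment over all tested genes at 0.05. Filtered genes held 0.00537% of counts. CPM uses TMM-scaled totals, and log2 CPM a prior count of 2. The SE is the absolute log2 fold change divided by the square root of the F statistic, and 95% intervals follow from it. Alternatives used DESeq2 1.42.0, and limma 3.58.1 on the log2 of the deposited signal. The test was checked on simulated data with few changed genes, equally many in each direction. That check does not cover a response as broad as the one here. Replicate pairs differed by 22.5 to 132 chi-square units per degree of freedom, so no library was a copy of another, and all were kept. The statistic looks for copies only, and its largest value was between filamentous replicates 3 and 4.

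Named genes were the 10 largest changes in each direction (at least 10 CPM, no overlap), the 5 largest CPM gains and losses among called genes, the 3 genes with most counts per form, and stretches holding a gene of at least 100 CPM. Genes, lists and tests were chosen with earlier results of these data known. Locus tags and gene order came from RefSeq's table for Tilwa1, which matched 7004 genes. Lists by product name or protein pattern and promoter motifs were planned and not used here, as they need product names or sequences. Python 3.11.15 was used for summaries.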

Additional observations from a re-analysis of the deposited data

Results flagged for a closer look

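In 8 of 130 sets of 4 values, one per library of a form, a single library stood far from the other 3. Chance gives about 1 in 20, or 6.50. A library numbered 4, yeast or filamentous, stood apart in 5 of the 8, and these are different libraries. Filamentous replicate 4 had 12.3 M gene counts, where the others had 28.0 M to 30.3 M, and 6907 detected genes, where the others had 6966 to 6973. Yeast replicate 4 had a TMM factor of 1.069, where the others had 0.971 to 0.974.

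In yeast replicate 4, FA09DRAFT_175300 stood at 281 CPM against 360.0 to 372 CPM in the other yeast libraries, and protein 327255 at 53.8 CPM against 75.5 to 78.6 CPM (protein_327255). In yeast replicate 3, FA09DRAFT_327780 stood at 1.31 CPM against 2.32 to 2.47 CPM, and FA09DRAFT_332744 at 51.3 CPM against 118 to 129 CPM. In yeast replicate 1, protein 363525 stood at 1.46 CPM against 0.312 to 0.373 CPM (protein_363525). Without that library its log2 fold change was 1.48 (edgeR adjusted p = 0.0121), against 0.63 (adjusted p = 0.307) with it.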

How the results depend on the processing

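Counts of called genes stayed within 1.5 times of the reported ones under every alternative except those named here. With a filter of at least 10 CPM, 146 genes rose at least 4-fold, and with limma-trend at a pseudocount of 10 the number was 170, against 263. Genes that fell at least 4-fold stayed within 1.5 times, at 165 and 204 against 225. They outnumbered the risen genes under these settings, the reverse of the reported order. The test beyond 2-fold, added after the data were seen, called 459 genes higher and 488 lower. Leaving out 1 library gave 1876 to 2194 higher and 1874 to 2165 lower genes, and 228 to 311 and 224 to 241 at least 4-fold. With upper-quartile factors 58.1% of calls were higher, against 50.3%, as the median log2 fold change moved by 0.10. DESeq2 called 2176 and 2121 genes, and no gene called with TMM was called in the opposite direction under any alternative. With the replicate number as a block 2172 genes were higher and 2143 lower; same-numbered libraries had deviations correlated at 0.159, 0.176, -0.0224 and 0.148, against -0.165 to 0.0948 for the 12 pairs with different numbers. Of the 8 libraries 6 correlated best with their own number, a hint from the data and not the design, but 1 pair was under 0.1, so the numbers were not treated as pairing the libraries. The block changed the call of 1 named gene, FA09DRAFT_328967 (adjusted p = 0.0127). Of 57 named genes, 41 kept direction and call throughout; FA09DRAFT_328967 was also called with upper-quartile factors, library size alone, DESeq2, without filamentous replicate 4 and without both libraries numbered 4, and FA09DRAFT_330858 with library size alone (adjusted p = 0.0286). The test beyond 2-fold ended the call of 13 named genes, FA09DRAFT_46456 among them. Alternatives on lists by protein pattern and on promoter motifs were not run, as they need sequences.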
